A study of Mus musculus with 8 samples.

Results

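Transcripts of 10 genes that build, equip or remodel the triglyceride-rich lipoproteins of the liver were followed in mice given ATF3, a stress-induced transcription factor. The genes are Apob, Mttp, Tm6sf2, Apoa4, Apoa5, Apoc1, Apoc2, Apoc3, Apoc4 and Apoe. They were picked by name with earlier results of these data known, and all 10 have a row among the 24972 genes of the deposited table. The ATF3 group comprised 4 liver libraries from C57BL/6J mice that had received AAV8-ALB-ATF3. The Null group comprised 4 liver libraries from C57BL/6J mice that had received AAV8-ALB-Null, the control virus of the design. Both groups were injected into a vein at 10 weeks of age and sampled 8 weeks later, at 18 weeks, so each Null mouse also carried a virus. ALB was taken as the albumin promoter, which acts mainly in hepatocytes. The labels give neither the sex of the mice nor the species of the delivered ATF3. The design text states 8 mice per group, and the labels do not tie a library to 1 mouse, so a p-value covers the spread among libraries, which may be technical.

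The liver packs triglyceride into very-low-density lipoprotein (VLDL). Apolipoprotein B is its backbone, and the microsomal triglyceride transfer protein, encoded by Mttp, loads lipid onto it in the endoplasmic reticulum. Apolipoproteins E, C and A-V then ride on the particle surface and set how fast lipoprotein lipase empties the particle and how receptors take up the remnant. In mice, Apoa4 is expressed in the small intestine and in the liver.

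A rough depth was 22500000 to 48500000 reads in ATF3 libraries and 17200000 to 48500000 reads in Null libraries. It is the summed normalized counts of a library divided by its most frequent value above 0, which takes that value as 1 read. Atf3 held 5611 (ATF3 1) to 7053 (ATF3 3) normalized counts in ATF3 libraries and 20.3 (Null 4) to 24.5 (Null 3) in Null libraries. Delivered and endogenous Atf3 transcripts cannot be separated in these values. Albumin held 2189600 to 2582300 normalized counts in ATF3 libraries and 1260300 to 2225100 in Null libraries, and of 8 hepatocyte markers 1 was higher (Ttr) and 2 were lower (Serpina1c and Cps1). Their sum was 3033400 to 3646700 in ATF3 libraries and 2322300 to 3637100 in Null libraries. Null 4 stood apart from Null 1 to 3 in both. It held 2225100 of albumin against 1260300 to 1622200, and a marker sum of 3637100 against 2322300 to 2618800. The 8 enterocyte markers other than Fabp2, which is also expressed in these livers, summed to 15.9 to 26.5 in ATF3 libraries. In Null libraries they summed to 398 (Null 1), 5.66 (Null 2), 13.8 (Null 3) and 6.29 (Null 4). None of the 8 was at 0 in Null 1, where Alpi held 149, Vil1 90.7, Cdh17 76.7, Rbp2 44.4 and Sis 22.2 normalized counts. Null 1 thus held intestinal marker transcripts that the other libraries lacked or held at lower values, and values without it are given below. Kupffer cell and macrophage markers summed to 14461 to 20501 in ATF3 libraries and 12389 to 18738 in Null libraries, and none of these 12 markers passed the test. The highest of these sums were in ATF3 1 and Null 4. Of 5 cholangiocyte markers, 1 was lower: Sox9 held 71.7, 16.8, 43.3 and 36.4 normalized counts in ATF3 1 to 4, against 269.5, 174, 149.8 and 54.8 in Null 1 to 4 (log2 change -1.89, limma adjusted p = 0.0243). Krt19 and Epcam, also epithelial markers, were highest in Null 1, at 157 and 131 normalized counts. Over all tested genes, 21.2% were called in either direction at a limma adjusted p under 0.05. None of 7 stellate, 7 endothelial and 4 tested lymphocyte markers passed. The part of these cells in the results below was not tested.

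Of 13301 genes tested with limma, 11.4% were higher and 9.82% were lower in the ATF3 group at an adjusted p under 0.05. Among the 10 genes, 3 were higher (Apoa4, Apoc3 and Apoc2) and 0 were lower. The count called was 5 without ATF3 1 and 5 without Null 4, and the added genes are named below. All 10 passed the filter on low values through both groups, with values of at least 10 in all 8 libraries. The groups did not overlap for these 3 genes, and they did not overlap for 26.3% of all tested genes.

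**Figure D1:**
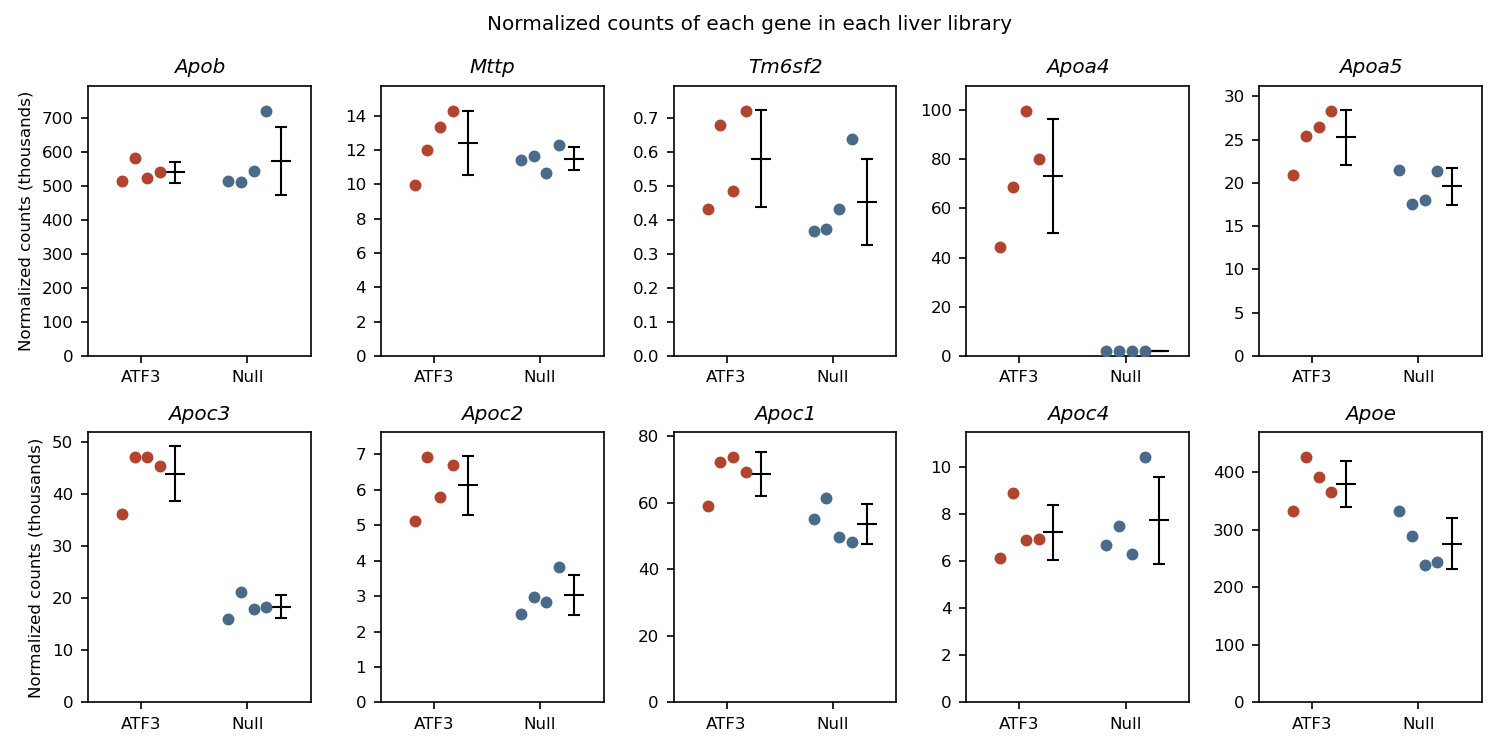
Normalized counts of the 10 genes, on axes scaled as labelled. Each point is 1 library, with replicates 1 to 4 from left to right in the ATF3 group and in the Null group; the bar shows the mean ± SD (n = 4 each). Each axis starts at 0. Apoa4, Apoc3 and Apoc2 show no overlap between ATF3 and Null libraries (Apoa4 at 44464 or more against 2021 or less), while the points of Apob and Apoc4 overlap and the highest value of both lies in Null 4.

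None of Apob, Mttp and Tm6sf2, the genes of the backbone and of its loading with lipid, passed the test. Apob, whose protein is the structural backbone of VLDL, held 513635, 583719, 524120.1 and 541358 normalized counts in ATF3 1 to 4, against 514056, 512686, 544476 and 722412 in Null 1 to 4. Values of the groups overlapped, and Null 4 stood above every other library. Its log2 change, here and below ATF3 minus Null, was -0.07 (95% confidence interval -0.47 to 0.33, limma adjusted p = 0.817), and the interval leaves room for a fall to 0.722-fold or a rise to 1.25-fold. The sign of the Apob change turned without Null 4 (0.04), with library weights (0.01) and with quantile normalization (0.20), and it passed in none of these. Without Null 1 the Apob change was -0.12. In bulk liver RNA, fewer cells of a type and less RNA per cell cannot be told apart, here and in all results below.

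Mttp, which encodes the lipid-transferring subunit of the transfer protein, held 9975, 12027, 13334 and 14297 normalized counts in ATF3 1 to 4, against 11388, 11643, 10640.3 and 12298 in Null 1 to 4. The ATF3 libraries spread more widely than the Null libraries and covered their whole range. Its log2 change was 0.10 (95% confidence interval -0.17 to 0.37, limma adjusted p = 0.607), and it was also 0.10 without Null 1. Tm6sf2 encodes a membrane protein of the endoplasmic reticulum needed for full lipidation of VLDL. It had the lowest TPM of the 10 in every library. Its normalized counts were 433, 679.9, 485 and 721 in ATF3 1 to 4, against 366, 373, 431 and 636 in Null 1 to 4. Only ATF3 2 and ATF3 4 lay above all Null libraries. The log2 change of Tm6sf2 was 0.36 (95% confidence interval -0.11 to 0.84, limma adjusted p = 0.266), and it passed without Null 4 (0.54, adjusted p = 0.043), with adjusted p from 0.0291 to 0.518 over all alternatives except the deposited TPM.

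Apoa4 stood far above the others in its change. Apolipoprotein A-IV is a surface protein of chylomicrons, VLDL and HDL. Apoa4 held 44464, 68789, 99781 and 79925 normalized counts in ATF3 1 to 4, against 1890.0, 2021, 1893 and 1866 in Null 1 to 4. The Null libraries were nearly equal, whereas the ATF3 libraries differed by more than the Null level, with ATF3 1 the lowest of them. The means were 73239.8 ± 23072 in ATF3 and 1917 ± 70.0 in Null libraries (SD, n = 4 each), a log2 change of 5.20 (SE 0.20, limma adjusted p = 1.76e-07) or 36.7-fold (95% confidence interval 26.7 to 50.3). This was the change ranked 15 from the top among the 13301 tested genes. Apoa4 in Null 1, the library with intestinal marker transcripts, lay within the range of the other Null libraries, and without Null 1 its log2 change was 5.19. By root mean square difference of log2 values centred per gene over the 8 libraries, the tested genes nearest in pattern to Apoa4 were Cyp2c39 (0.342), Cntnap1 (0.466) and E030018B13Rik (0.507). These genes were chosen for their likeness to Apoa4, so their changes carry no test here. Cyp2c39, a cytochrome P450 gene, held 528 to 996 normalized counts in ATF3 libraries and 22.1 to 37.2 in Null libraries.

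Apoa4 lies on chromosome 9, 46240696 to 46243459, on the forward strand in GENCODE vM21 for mm10. The 250 bases before its RefSeq start are shown because no other gene among the 10 changed as much. They span chr9:46240594-46240843 in GRCm38.p6, forward strand, and are printed 5′ to 3′. The RefSeq start lies 148 bases downstream of the GENCODE start, so 102 of these bases precede the gene as GENCODE gives it and 148 lie inside it.
Apoa4: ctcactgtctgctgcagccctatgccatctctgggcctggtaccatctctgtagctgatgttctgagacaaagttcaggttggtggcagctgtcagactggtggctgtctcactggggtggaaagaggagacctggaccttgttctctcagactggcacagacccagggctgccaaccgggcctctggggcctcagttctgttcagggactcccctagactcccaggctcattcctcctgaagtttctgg
None of 7 motifs searched on both strands was in this window: TGACGTCA (the cyclic AMP response element), TGACTCA (the AP-1 site), TGACGCAA and TGATGCAA (composite forms), TGACG (a shorter core contained in TGACGTCA and TGACGCAA), a direct repeat of AGGTCA with 1 spacer base, and TATAAA. This says only that these letters are not in the 250 bases, of which 102 precede the GENCODE start. Of the 32851 RefSeq promoter windows of the same length, 1.55% hold TGACGTCA, 4.46% TGACTCA, 0.438% TGACGCAA, 0.791% TGATGCAA, 17.8% TGACG, 0.0335% the direct repeat and 12.4% TATAAA.

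Apoc3, which encodes an inhibitor of lipoprotein lipase and of remnant uptake, was higher too. It held 36176, 47138, 47072 and 45379 normalized counts in ATF3 1 to 4, against 16055, 21280.4, 17958 and 18329 in Null 1 to 4. ATF3 1 was the lowest ATF3 library and still lay above all Null libraries. The log2 change was 1.25 (SE 0.13, limma adjusted p = 8.69e-05) or 2.39-fold (95% confidence interval 1.96 to 2.90). Apoc3 was lowest in Null 1, and without that library its log2 change was 1.19.

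Apoc2, which encodes the obligate activator of lipoprotein lipase, the opposite role, was higher as well. Apoc2 held 5124, 6923, 5785 and 6698 normalized counts in ATF3 1 to 4, against 2503, 2979, 2820.3 and 3833 in Null 1 to 4. Null 4 was the highest Null library and lay below ATF3 1, the lowest ATF3 library. The log2 change was 1.02 (SE 0.14, limma adjusted p = 0.000764) or 2.03-fold (95% confidence interval 1.63 to 2.54), and without Null 1 it was 0.94. Of the 31-base stretches of Apoc2 transcripts, 78.8% also occur in Gm44805, an annotated gene that spans Apoc4 and Apoc2 on the same strand. Gm44805 averaged 2.74 ± 1.91 normalized counts in ATF3 and 0.419 ± 0.839 in Null libraries (SD, n = 4 each). How shared reads were assigned is not given in the sources used here, so the value of Apoc2 is uncertain to that extent.

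The 250 bases before the RefSeq starts of Apoc2 and Mttp are shown because they were the only windows among those of the 7 genes in the promoter table that held the core TGACG, in capitals and read on the opposite strand. They span chr7:19677942-19678191 and chr3:138143419-138143668 in GRCm38.p6, both on the reverse strand, and are printed 5′ to 3′ along the gene. The RefSeq start of Apoc2 is also its GENCODE start. That of Mttp is an inner start, 1550 bases downstream of the GENCODE start, so the whole Mttp window lies inside the gene as GENCODE gives it.
Apoc2: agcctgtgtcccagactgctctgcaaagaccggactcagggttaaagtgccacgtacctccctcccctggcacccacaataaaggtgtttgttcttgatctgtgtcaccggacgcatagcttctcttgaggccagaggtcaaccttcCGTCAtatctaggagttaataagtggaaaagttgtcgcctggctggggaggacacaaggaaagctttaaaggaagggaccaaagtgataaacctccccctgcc
Mttp: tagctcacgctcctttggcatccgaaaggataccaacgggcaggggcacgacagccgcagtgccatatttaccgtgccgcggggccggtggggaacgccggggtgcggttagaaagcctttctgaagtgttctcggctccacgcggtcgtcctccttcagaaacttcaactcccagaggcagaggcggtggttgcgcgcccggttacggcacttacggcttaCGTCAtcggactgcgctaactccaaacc
The match lies 103 to 99 bases before the start of Apoc2, which was higher, and 28 to 24 bases before the inner RefSeq start of Mttp, which did not pass. TATAAA was found in the windows of Apob and Apoa5. Apoe has 3 windows, and TATAAA was only in one before an inner RefSeq start, 567 bases inside the gene, and not in the window before the GENCODE start. These matches are descriptions of the letters and were not tested for binding.

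Apoa5, whose product promotes lipoprotein lipase action at the vessel wall, held 20882, 25363, 26407 and 28358 normalized counts in ATF3 1 to 4, against 21490.2, 17532, 18024 and 21322 in Null 1 to 4. In 3 of 4 ATF3 libraries it was above every Null library, and ATF3 1 lay within the Null range. The log2 change of 0.36 (SE 0.12) did not pass (limma adjusted p = 0.064). Without ATF3 1 it passed (0.45, adjusted p = 0.027), as it did without Null 4 (0.41, adjusted p = 0.0368), with library weights (0.51) and with quantile normalization (0.49), with limma adjusted p from 0.0037 to 0.178 over all alternatives except the deposited TPM.

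Apoc1 and Apoe likewise did not pass. Apoc1 encodes a small apolipoprotein that inhibits lipid transfer and remnant uptake. It held 59106, 72408, 73809 and 69396 normalized counts in ATF3 1 to 4, against 55125, 61388, 49745 and 48187 in Null 1 to 4. ATF3 1 lay below Null 2, and the other ATF3 libraries lay above all Null libraries. Apoc1 had a log2 change of 0.36 (SE 0.13, limma adjusted p = 0.0697), and it passed without ATF3 1 (0.43, adjusted p = 0.0452), with library weights (0.34) and with quantile normalization (0.80).

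Apoe, which encodes the ligand for remnant receptors and is made by hepatocytes and macrophages, made up most of the summed TPM of the 10 genes together with Apoc1. It held 331871, 426377, 391735 and 365352 normalized counts in ATF3 1 to 4, against 332705, 289892, 238278 and 243676 in Null 1 to 4. Null 1 was the highest Null library and lay just above ATF3 1. The log2 change of 0.46 (SE 0.17) did not pass (limma adjusted p = 0.0797), and its 95% confidence interval before adjustment ran from 0.09 to 0.84. Without Null 1, the Apoe change was 0.56 (limma adjusted p = 0.0622). It passed with a robust variance estimate (adjusted p = 0.0383), with library weights (0.47) and with quantile normalization (0.90), and its adjusted p ran from 0.00276 to 0.315 over all alternatives except the deposited TPM. ATF3 1 was the lowest ATF3 library for Apoe, as it was for each of the 10 genes, and it had the highest macrophage marker sum. These markers were mixed in ATF3 1. Marco held 1453 normalized counts against 204 to 303 in ATF3 2 to 4, and Clec4f 2157 against 2620 to 2736. ATF3 1 also had the highest rough depth of the ATF3 libraries, 48500000 reads against 22500000 to 24600000. Mir6236 held 37.0% of the TPM in ATF3 1, against 0.319 to 8.26% in ATF3 2 to 4. The part of macrophages, depth or Mir6236 in the Apoe values was not tested.

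Apoc4, a minor apolipoprotein gene whose overexpression raises plasma triglyceride in mice, held 6143, 8872, 6893 and 6927 normalized counts in ATF3 1 to 4. It held 6686, 7468, 6309.7 and 10405 in Null 1 to 4. The groups overlapped, with Null 4 the highest of the 8 libraries. Its log2 change was -0.08 (95% confidence interval -0.46 to 0.29, limma adjusted p = 0.771), and it was 0.07 without Null 4 and 0.01 with library weights. Without Null 1 the log2 change was -0.14 for Apoc4, 0.41 for Apoa5, 0.37 for Apoc1 and 0.28 for Tm6sf2, and none of these passed.

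A ratio of genes within a library does not depend on how that library was scaled, so each log2 change was also set against that of Apob. In that fit, 9.75% of 13300 genes were called higher. By limma, Apoa4 (5.27, SE 0.23, adjusted p = 8.29e-07), Apoc3 (1.33, SE 0.16, adjusted p = 0.000417) and Apoc2 (1.09, SE 0.11, adjusted p = 0.000151) changed more than Apob. The other 6 genes did not pass: their differences from Apob ran from -0.01 (Apoc4, 95% confidence interval -0.28 to 0.26) to 0.53 (Apoe, 95% confidence interval 0.10 to 0.97, adjusted p = 0.104). Set against Mttp, the same 3 genes passed, at 5.10, 1.15 and 0.92, and 12.9% of genes were called in either direction.

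**Figure D2:**
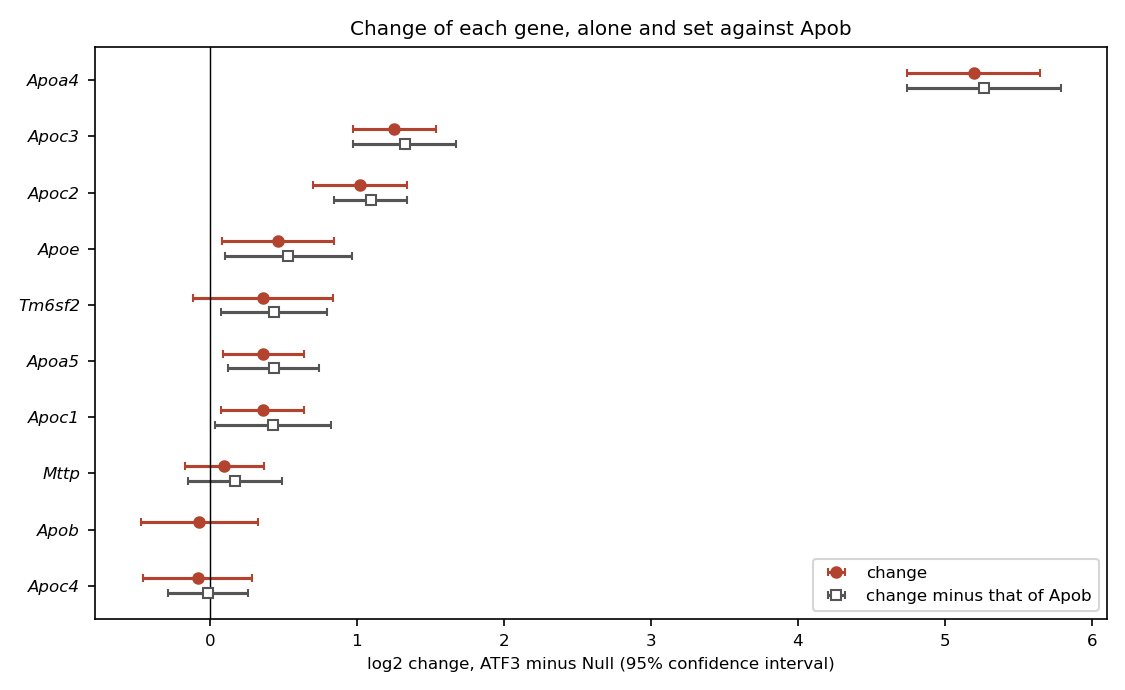
The log2 change, ATF3 minus Null, of each gene (filled circles) and the change minus that of Apob in the same library (open squares), with 95% confidence intervals before adjustment for multiple tests. Apoa4 lies at 5.20, Apoc3 and Apoc2 at 1.25 and 1.02, and the intervals of Tm6sf2, Mttp, Apob and Apoc4 include 0 for the change itself.

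Of the 10 genes, 7 sit in 2 gene clusters, and in each a pair of neighbours differed in its change. The pairs were chosen for a test after the data were seen. On chromosome 9, Apoc3 (46232933 to 46235636, reverse strand) starts 5060 bases from Apoa4, and the starts face away from each other; Apoa5 (46268633 to 46271919) lies 25173 bases beyond Apoa4. Set against Apoc3 in the same libraries, Apoa4 changed more by 3.94 on the log2 scale (SE 0.17, limma adjusted p = 3.85e-09). In that fit 93.1% of genes differed from Apoc3. Apoa1, the main HDL apolipoprotein gene and the remaining gene of that cluster, was lower, at -0.46 (SE 0.15, limma adjusted p = 0.0494). The Apoa1 call was lost in 7 of 8 fits without 1 library, all but that without Null 4 (adjusted p from 0.0613 to 0.134). It was also lost with a pseudocount of 10 (adjusted p = 0.053), with no filter on low values (adjusted p = 0.158) and with the rescaled TPM (adjusted p = 0.101), and its sign turned with quantile normalization (0.13) and with the deposited TPM (0.55). Of the tested neighbours within 100 kb, Zpr1 (-0.29, adjusted p = 0.123) and Bud13 (-0.05, adjusted p = 0.845) did not pass. On the opposite strand Gm10680 and Gm47528 overlap Apoa4, and Gm47544 overlaps Apoa5. The library kit keeps strand, but whether reads were counted by strand is not given in the sources used here, so reads of such partners cannot be told apart.

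On chromosome 7, Apoc2 (19671579 to 19677941), Apoc4 (19678083 to 19681479), Apoc1 (19689481 to 19692660) and Apoe (19696109 to 19699188) lie on the reverse strand. Apoc2 and Apoc4 are 141 bases apart, and set against Apoc4 in the same libraries Apoc2 changed more by 1.11 on the log2 scale (SE 0.14, limma adjusted p = 0.000607). In that fit 9.06% of genes were called. Apoc1 and Apoe are 3448 bases apart, and the difference of their changes was -0.11 (95% confidence interval -0.50 to 0.29, limma adjusted p = 0.659), with 42.8% of genes called in that fit. Of 7 tested neighbours within 100 kb, 1 was higher and 0 were lower. It was Tomm40, a mitochondrial import gene next to Apoe, at 0.38 (adjusted p = 0.0232), and this call was lost without ATF3 1, ATF3 2, ATF3 4 or Null 1 (adjusted p from 0.0513 to 0.0704). Apob lies on chromosome 12 (7977648 to 8016835), Mttp on chromosome 3 (138089854 to 138144968) and Tm6sf2 on chromosome 8 (70072924 to 70080066), away from both clusters.

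**Figure D3:**
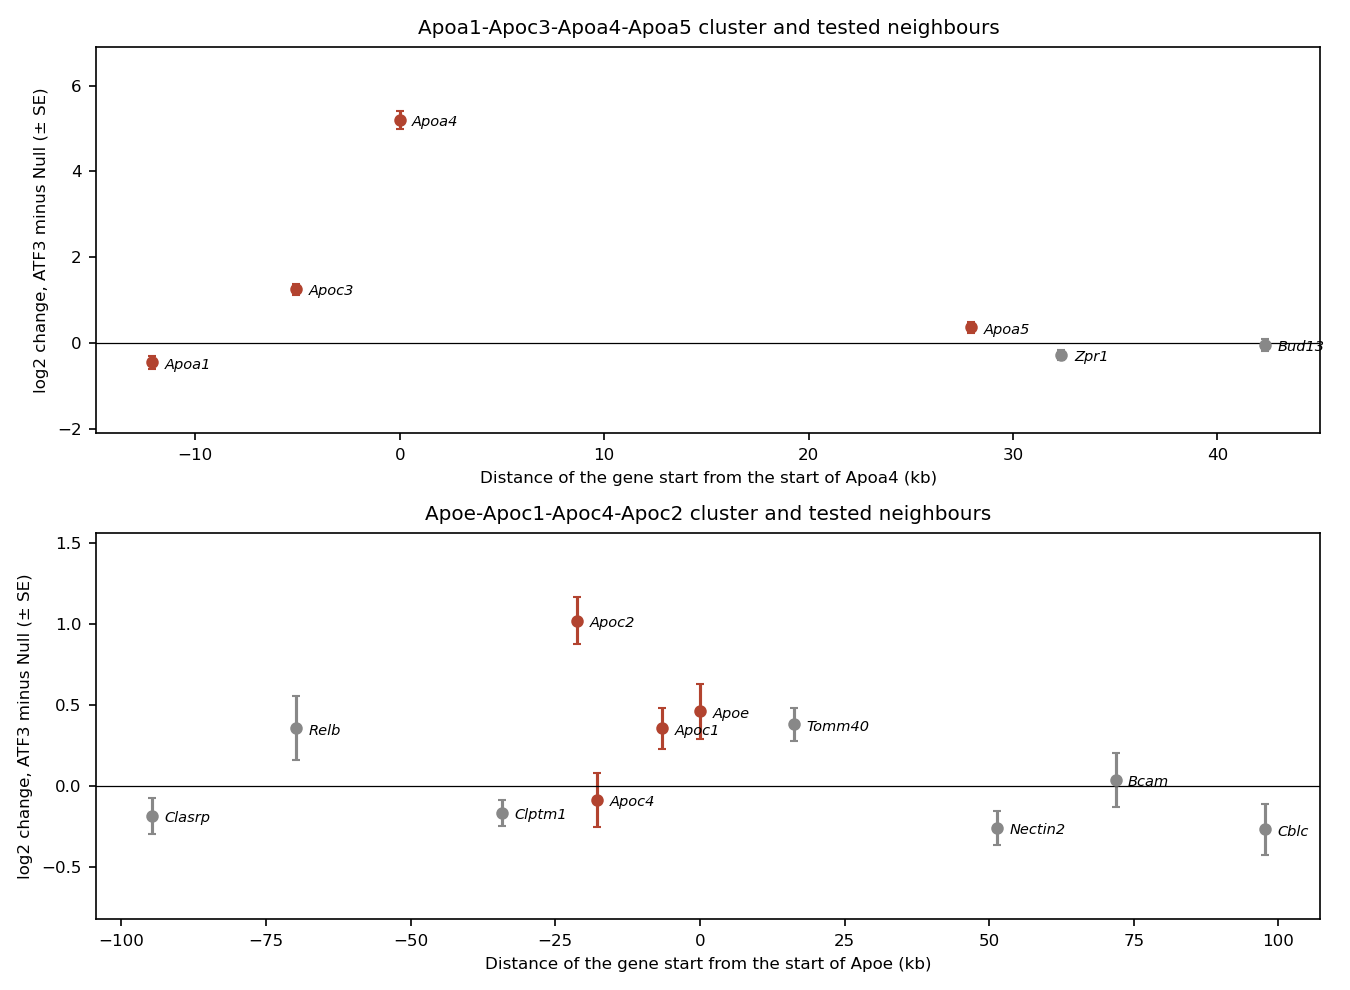
The log2 change, ATF3 minus Null (± SE), of the apolipoprotein genes (red) and of their tested neighbours (grey), against the distance of each gene start from the start of Apoa4 (upper panel) or Apoe (lower panel) in kb. Apoa4 at 5.20 stands above Apoc3 at 1.25 on one side and Apoa5 at 0.36 on the other, and Apoc2 at 1.02 stands above Apoc4 at -0.08 next to it.

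Levels of different genes can be compared only per length, so the deposited TPM of the 10 genes were expressed as shares of their sum in each library. Apoa4 made up 3.20, 3.88, 5.73 and 4.86% of that sum in ATF3 1 to 4, against 0.161, 0.168, 0.188 and 0.177% in Null 1 to 4. It thus ranked level with Apob in ATF3 libraries, ahead of it in ATF3 3 and ATF3 4, whereas in Null libraries it ranked below Mttp and above Tm6sf2 alone. Apoc3 made up 18.0 ± 0.459% in ATF3 and 11.2 ± 1.35% in Null libraries (SD, n = 4 each), and the groups did not overlap.

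Apoe held 34.2 ± 1.37% in ATF3 and 36.6 ± 3.50% in Null libraries, and Apoc1 34.0 ± 0.612% in ATF3 and 39.1 ± 1.97% in Null libraries (SD, n = 4 each). Apoe came before Apoc1 in 2 of 4 ATF3 libraries and Apoc1 before Apoe in 3 of 4 Null libraries, and their ranges overlapped in both groups. Shares of Apob, Apoc4, Apoc1 and Mttp were smaller in all ATF3 libraries than in the Null libraries; a share falls where others grow. Apob held 4.01 ± 0.337% in ATF3 and 6.31 ± 1.45% in Null libraries (SD, n = 4 each). Shares of Apoc2, Apoa5, Apoe and Tm6sf2 overlapped between groups. In ATF3 libraries the order after Apoe and Apoc1 was Apoc3, then Apoa4 and Apob, then Apoc4, Apoc2, Apoa5, Mttp and Tm6sf2. In Null libraries it was Apoc3, then Apob and Apoc4, whose ranges overlapped, then Apoa5 and Apoc2, whose ranges also overlapped, then Mttp, Apoa4 and Tm6sf2. The 10 genes together held 4.30 to 4.84% of all normalized counts in ATF3 libraries and 3.40 to 3.81% in Null libraries.

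**Figure D4:**
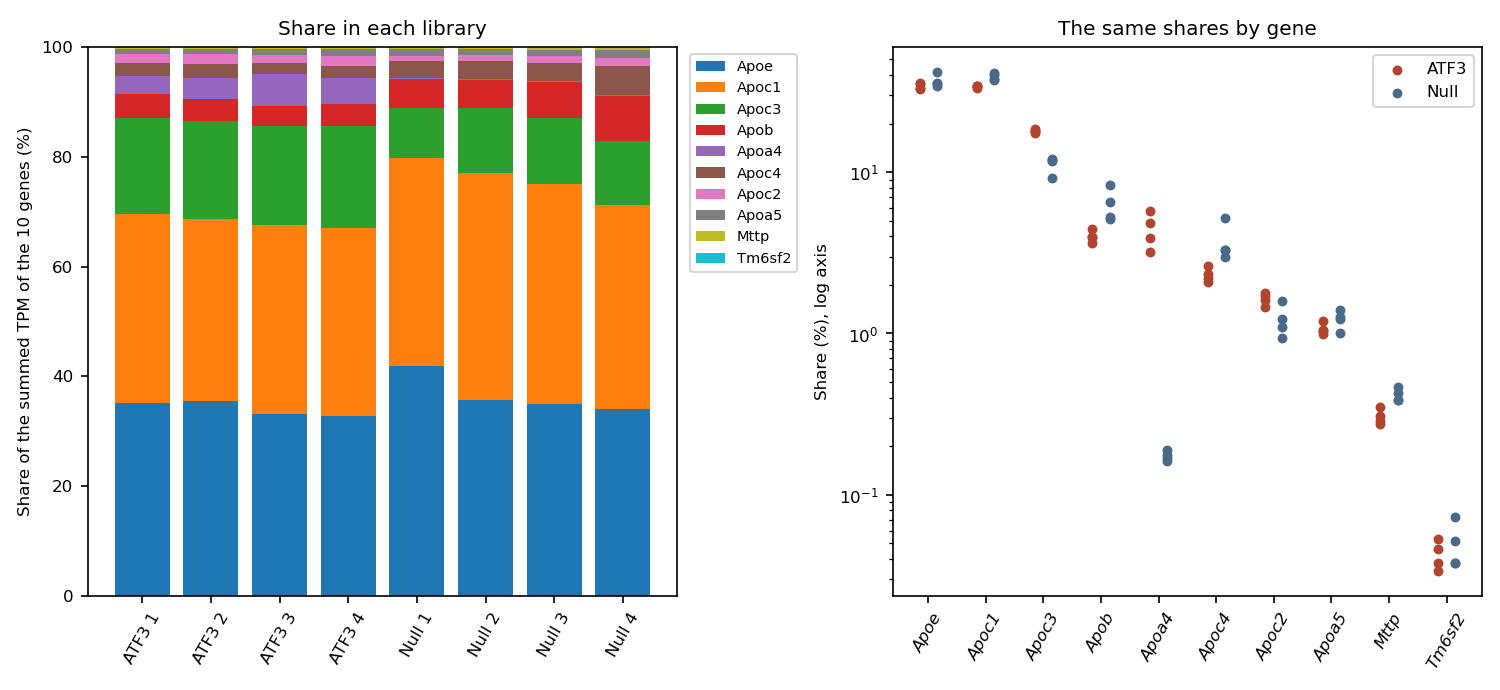
Share, in percent, of the summed TPM of the 10 genes held by each gene, stacked by library (left) and by gene on a log axis (right; each point is 1 library). ATF3 libraries show a band of Apoa4 between 3.20 and 5.73% that is at most 0.188% in Null libraries, and a wider band of Apoc3.

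Genes that act around the particle were counted in 6 lists, beside a background of 21.2% of tested genes called in either direction and a median change of 0.00681 over all tested genes. The lists were chosen with earlier results of these data known, so their shares are descriptions and not tests. Among other apolipoproteins, 2 of 10 tested were higher and 3 lower, 50% called (median 0.21). The count called was 3 without ATF3 3 or 4 or without Null 1, 2 or 3. Apoh, the beta-2-glycoprotein I gene, was higher by 0.75, and Apon by 0.93. Apom, which carries sphingosine-1-phosphate on HDL, fell by 1.06. Clu, the clusterin gene, fell by 0.58, and its call was lost without ATF3 1, 3 or 4 or without Null 1, 2 or 3 (adjusted p from 0.0555 to 0.0737), and with quantile normalization (adjusted p = 0.0622).

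Among genes of particle folding and export from the endoplasmic reticulum, 3 of 24 tested were higher and 1 lower, 16.7% called against 21.2% of all tested genes (median 0.21). The count was 2 without ATF3 3 or ATF3 4 and 8 without Null 4. P4hb, which encodes the disulfide isomerase that is the partner subunit of Mttp, held 43809 ± 5997 in ATF3 and 29762 ± 3885 in Null libraries (SD, n = 4 each; log2 change 0.56, SE 0.14, limma adjusted p = 0.0171). The P4hb call was lost without ATF3 3 or ATF3 4 (adjusted p from 0.0572 to 0.061). Of the coat proteins that bud vesicles from the endoplasmic reticulum, Sec24d was higher by 1.12 and Sec23b by 0.60. Klhl12, a ubiquitin ligase adaptor that enlarges such vesicles, fell by 0.42, and its call was lost without ATF3 1, 3 or 4 or without Null 1, 2 or 3 (adjusted p from 0.0576 to 0.092). In the list of Apob mRNA editing, which in mouse liver makes the short form of apolipoprotein B, limma called 0 of 4 (1 at an unadjusted p under 0.05, 1 called with library weights, and 1 without ATF3 1). Apobec1, the editing enzyme gene, was at -0.25 (adjusted p = 0.0917), and A1cf, Rbm47 and Syncrip at -0.16, -0.16 and -0.27.

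Genes that supply triglyceride to the particle were called in both directions, 7 higher and 6 lower of 21 tested (median 0.29). This is 61.9% called, beside 21.2% of all tested genes. Cidec, a lipid droplet protein gene, held 2557, 3075, 4591 and 4290 normalized counts in ATF3 1 to 4, against 33.8, 79.4, 71.0 and 42.4 in Null 1 to 4 (log2 change 6.02, limma adjusted p = 3.73e-07). Pnpla3, a lipid droplet hydrolase gene, held 78.8, 78.0, 85.0 and 106 normalized counts in ATF3 1 to 4, against 10.2, 3.91, 9.06 and 4.68 in Null 1 to 4 (log2 change 3.54). Only Null 1 of the Null libraries reached 10, so Pnpla3 passed the filter on low values through the ATF3 libraries. It is among the 7 called higher. On log2(TPM + 1) after rescaling, the Pnpla3 change was 0.67. Higher too was Ces1d, a carboxylesterase gene linked to VLDL lipid mobilization, at 1.61. Of the other Ces genes listed, Ces1g and Ces3a were higher (0.74 and 0.47) and Ces1e and Ces3b lower (-0.84 and -0.79). Ces1c and Ces1f did not pass. Dgat2, which makes triglyceride, fell by 0.86. Dgat1 was higher by 0.44 (limma adjusted p = 0.0234), a call that held in 3 of 8 fits without 1 library. The count called in this list was 8 without ATF3 3 and 14 without Null 4, against 13 with all libraries.

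Among genes of lipolysis and particle uptake, 4 of 16 tested were higher and 3 lower (median 0.12), 43.8% called beside 21.2% of all tested genes. Lipg, the endothelial lipase gene, was higher by 1.04 and Lsr, a remnant receptor gene, by 0.54. Angptl8, whose product restrains lipoprotein lipase, fell by 1.24. Among regulators known to act on the 10 genes, 5 of 26 tested were higher and 6 lower, 42.3% called (median -0.15). Without ATF3 3, 7 were called. Creb3l3, a liver transcription factor gene, held 10983 ± 534 in ATF3 and 7043 ± 515 in Null libraries (SD, n = 4 each; log2 change 0.64, SE 0.09, limma adjusted p = 0.000686). Srebf1 and Ppargc1a were higher by 1.30 and 0.77, and Rora fell by 0.85. The part of these regulators in the changes of the 10 genes was not tested.

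**Figure D5:**
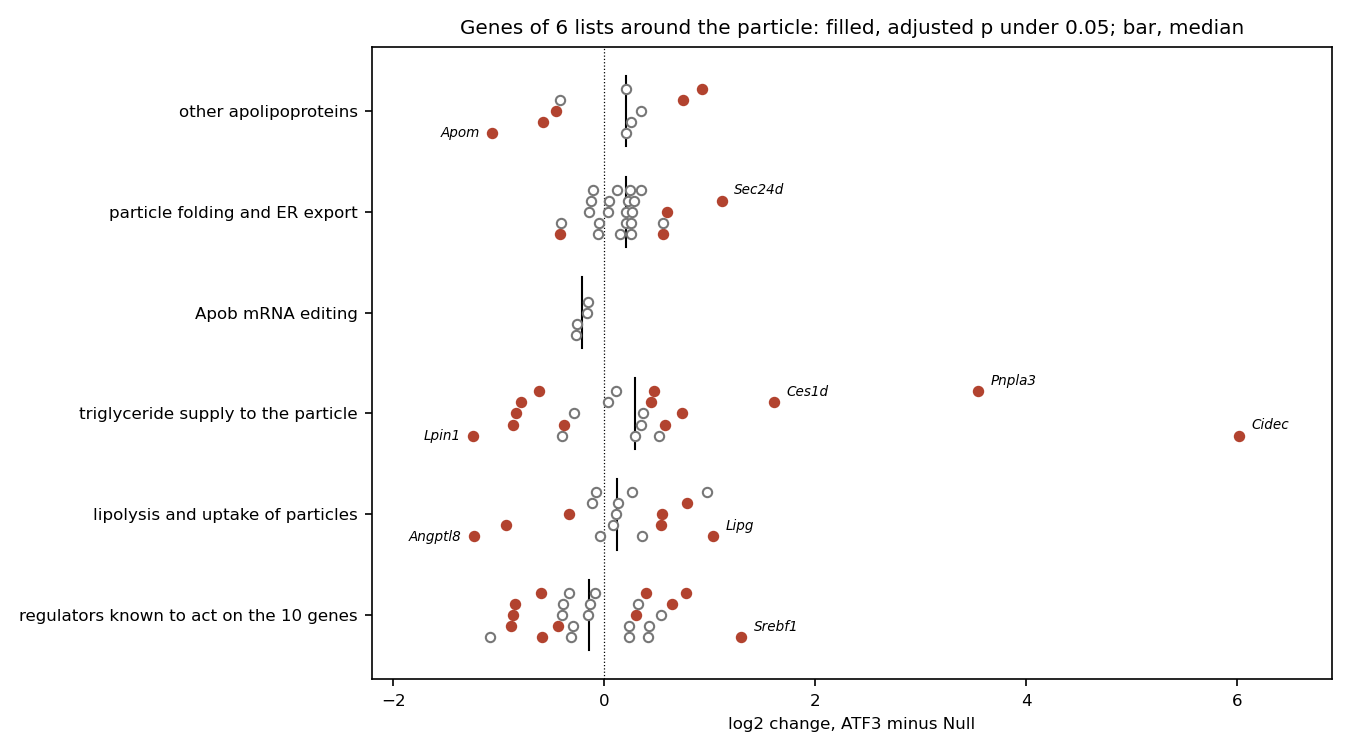
The log2 change, ATF3 minus Null, of each tested gene in 6 lists. Filled points have an adjusted p under 0.05, open points do not, the bar is the median of the list, and called genes that changed by at least 1 in either direction are named. Cidec at 6.02 and Pnpla3 at 3.54 lie farthest to the right, and the medians lie between -0.21 and 0.29. Pnpla3 passed the filter on low values through the ATF3 libraries.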

How the data were processed

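Stranded total RNA libraries of mouse liver were sequenced, and Bowtie2 and the mm10 build are named in the submitters' processing notes. The quantifier is not given in the sources used here. The authors deposited a signal, read counts per gene divided by a factor per library (by its name a DESeq scaling), whose values are not whole; low values are mostly no whole multiples of 1 step, so whole reads were not recovered and no count test was run. The TPM the authors deposited hold the same estimates (SD of the log2 ratio after removing gene and library constants 0.00533), and Mir6236 held up to 89.4% of them in Null 1. Column titles assigned libraries, and no pair of libraries had over 10 identical values among the tested genes.

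The 13301 genes that reached 10 in 4 or more libraries entered a test with limma 3.58.1 in R 4.3.3 on log2(value + 1), which understates changes of low genes (eBayes with a trend, two-sided, Benjamini-Hochberg over all tested genes, threshold 0.05). For ratios, the log2 value of 1 gene was subtracted in each library before the same fit. The procedure was run on simulated data with independent noise for each gene. These held no shift shared by the genes of a library, so they do not cover such shifts. Members and lists were chosen with earlier results of these data known. Genes named are the 10, Atf3, up to 4 per list with the smallest p, the 3 nearest to Apoa4 and the cluster neighbours, of which 1 list gene is not reported here; the single marker genes and Gm44805 were named after their values were seen. Alternatives covered pseudocount, filter, variance, library weights, scaling, TPM and leaving out each library. Positions are from GENCODE vM21, promoters from RefSeq (GRCm38.p6). Python 3.11.15 and matplotlib 3.10.9 made tables and figures.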

Additional observations from a re-analysis of the deposited data

Results flagged for a closer look

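Among 88 groups of 4 libraries examined, 9 had a single library far from the other 3, and chance gives about 1 in 20. Among the 10 genes, Null 4 held 722410.0 normalized counts of Apob and ATF3 1 held 36176 of Apoc3. As shares of the summed TPM of the 10 genes, Apoc4 reached 5.20% in Null 4, Apoc3 only 9.17% in Null 1 and Apoc1 33.1% in ATF3 2.

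Among the list genes, Sec23b held 1156 normalized counts in Null 2, and Rbm47 4317 in ATF3 1 and 3273 in Null 3. The 8 enterocyte markers other than Fabp2 summed to 398 in Null 1, a set narrowed after the values were seen. Null 1 is also the library in which Mir6236 held 89.4% of the TPM. No explanation of these values was tested.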

How the results depend on the processing

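No paired analysis was possible because the library titles run from 1 to 8 without shared replicate numbers. By limma, Apoa4 kept its direction and call in all alternatives. Apoc3 and Apoc2 did so in all but the deposited TPM (2.26, adjusted p = 0.24, and 2.02, adjusted p = 0.25). There the median change of all genes was 0.68, against 0.00068 after rescaling by median of ratios, where both passed.
The deposited TPM also gave positive values for Apob (0.94), Apoc4 (0.92), Clu (0.43), Klhl12 (0.36), Apobec1 (0.60), A1cf (0.81), Rbm47 (0.79), Syncrip (0.65), Dgat2 (0.14), Rora (0.10) and Apoa1 (0.55). It called 440 genes higher and 76 lower, 1 of the 10 genes, 0 other apolipoproteins, 0 folding and export genes, 2 triglyceride supply genes, 1 lipolysis gene and 0 regulators. Quantile normalization gave 0.49 for Apoa5, 0.20 for Apob, 0.80 for Apoc1, 0.90 for Apoe and 0.13 for Apoa1, with 6 of the 10 genes and 3 other apolipoproteins called. Robust variance gave 0.46 for Apoe, which then passed. Library weights gave 0.51 for Apoa5, 0.014 for Apob, 0.34 for Apoc1, 0.011 for Apoc4, 0.47 for Apoe and 0.56 for Tm6sf2, and against Apob 0.48 for Apoa5, 0.027 for Apoc4 and 0.56 for Tm6sf2. They called 2271 genes higher and 2130 lower, 7 of the 10 genes, 10 folding and export genes, 1 editing gene and 18 regulators.
Leaving out 1 library in turn gave 0.30 to 0.45 for Apoa5, -0.12 to 0.045 for Apob, 0.31 to 0.43 for Apoc1, -0.19 to 0.070 for Apoc4 and 0.25 to 0.54 for Tm6sf2. Against Apob it gave 0.36 to 0.53 for Apoa5, -0.079 to 0.036 for Apoc4, 0.36 to 0.68 for Apoe and 0.32 to 0.54 for Tm6sf2. It called 851 (without ATF3 3) to 1812 genes lower, 3 to 5 of the 10 genes, 3 to 7 other apolipoproteins, 2 to 8 folding and export genes, 0 to 1 editing genes, 8 to 14 triglyceride supply genes and 7 to 16 regulators. The Tm6sf2 share difference ran from -0.0115 to 0.00037 percentage points, positive without Null 4. The cause of these shifts was not tested. All 10 genes held at least 366 normalized counts in each library. The part of depth in their values was not tested.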
